A study of Mus musculus with 14 samples.

Results

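The IGF1 axis of the early mouse forelimb bud was followed through 7 transcripts, the ligand *Igf1*, its receptor *Igf1r* and the binding proteins *Igfbp2*, *Igfbp3*, *Igfbp4*, *Igfbp5* and *Igfbp7*. They were chosen by gene symbol and are 7 of the 23284 symbols counted in each RNA-seq library. The study asked which transcripts of the forelimb bud depend on SMAD4, the shared mediator of BMP and TGFβ signal transduction in the nucleus. RNA was sequenced from both forelimb buds of single NMRI embryos, and 1 embryo made 1 replicate. Embryos of 30 somites (E10.0) and of 35 somites (E10.5) were taken, and each stage had 3 wild types (Smad4+/+) and 4 mutants (Smad4Δ/Δc). Smad4Δ/Δc embryos carry 1 null allele of *Smad4* and 1 allele that the CRE recombinase removes, and all 14 embryos, wild type included, carry the PrxCreT/+ transgene. The *Prrx1* limb enhancer drives this transgene in limb bud mesenchyme, so that ectoderm, blood vessels, blood cells and immigrating muscle precursors of a mutant forelimb bud keep the conditional allele. *Smad4* was measured at 152 to 169 CPM (read counts scaled to library size) in the 6 wild-type embryos and at 32.9 to 46 CPM in the 8 mutants. Its log2 fold change was -2.01 in the younger and -2.16 in the older embryos, and every library matched its genotype label. The limb mesenchyme genes *Prrx1* (537 to 915 CPM) and *Tbx5* (76.8 to 144 CPM) were well expressed in all 14 libraries.

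IGF1 is a secreted growth factor that binds the receptor tyrosine kinase IGF1R and activates the PI3K-AKT-mTOR and RAS-MAPK cascades, which promote growth, survival and differentiation. Its relative IGF2 binds the same receptor and is the main IGF of the embryo. IGF binding proteins are secreted proteins that hold IGFs outside the cell. They limit access of the ligand to the receptor, prolong its life or carry it to cell surfaces and matrix, and proteases such as the pappalysins cleave some of them and set the ligand free. In the limb, IGF signaling is known for its functions in growth of the bud and later of the cartilage.

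The members lie at 6 places of the genome. In the NCBIM37 build (mm9), *Igf1* lies on chromosome 10 from 87321010 to 87399792 (plus strand) and *Igf1r* on chromosome 7 from 75097713 to 75371484 (plus strand). *Igfbp2* (72871077 to 72899048, plus strand) and *Igfbp5* (72904506 to 72921458, minus strand) are neighbors on chromosome 1 that end 5457 bases apart. *Igfbp3* (7106089 to 7113926, minus strand) and *Igfbp4* (98902558 to 98913969, plus strand) are both on chromosome 11, far from each other, and *Igfbp7* lies on chromosome 5 from 77778265 to 77837070 (minus strand). The end of *Igfbp7* overlaps the end of *Polr2b* on the opposite strand, and without strand information reads in the overlap cannot be told apart.

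The promoters of the 3 members with a difference of genotype at both stages or of stage in both genotypes are shown, each as the 250 bases before its RefSeq start in GRCm38.p6, 5′ to 3′ on the strand of the gene. Capitals mark every match, on either strand, to the SMAD box CAGAC, the GC-rich SMAD site GGCGCC, the TATA box TATAAA and its variant TATATA. The promoter of *Igf1* is chr10:87860861-87861110 (plus strand), that of *Igfbp3* is chr11:7213924-7214173 (minus strand) and that of *Igfbp4* is chr11:99040994-99041243 (plus strand).
*Igf1*: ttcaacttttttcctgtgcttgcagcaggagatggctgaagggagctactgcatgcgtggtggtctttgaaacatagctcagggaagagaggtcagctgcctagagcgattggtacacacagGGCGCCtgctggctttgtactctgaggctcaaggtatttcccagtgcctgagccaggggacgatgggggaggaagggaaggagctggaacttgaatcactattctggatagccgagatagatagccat
*Igfbp3*: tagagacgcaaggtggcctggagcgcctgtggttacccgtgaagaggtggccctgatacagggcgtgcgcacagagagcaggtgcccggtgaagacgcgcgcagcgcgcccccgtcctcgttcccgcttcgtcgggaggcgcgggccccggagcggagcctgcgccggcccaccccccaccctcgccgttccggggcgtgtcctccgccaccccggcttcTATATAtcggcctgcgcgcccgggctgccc
*Igfbp4*: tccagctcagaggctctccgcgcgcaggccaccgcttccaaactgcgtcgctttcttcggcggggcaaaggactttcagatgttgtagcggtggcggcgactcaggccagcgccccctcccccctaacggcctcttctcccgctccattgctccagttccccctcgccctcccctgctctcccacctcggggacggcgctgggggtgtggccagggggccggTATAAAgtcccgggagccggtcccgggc
The *Igfbp3* and *Igfbp4* windows hold a TATA-type match, TATATA with its first base 30 bases before the start of *Igfbp3* and TATAAA 28 bases before the start of *Igfbp4*, and neither holds one of the 2 SMAD motifs. No 2 matches overlap. The *Igf1* window holds GGCGCC with its first base 128 bases before the start and no TATA-type match. The 3 windows also differ in base composition, with 52.8% G and C in *Igf1*, 73.2% in *Igfbp3* and 69.2% in *Igfbp4*. Among 32851 RefSeq mouse promoter windows of this length, 42.2% hold CAGAC, 9.59% GGCGCC, 12.4% TATAAA and 5.25% TATATA. All 7 members matched an entry, and *Igfbp2* has 2 starts in this set. The GENCODE annotation lists 9 transcripts of *Igf1*, 2 of *Igfbp3* and 4 of *Igfbp4*, and any other starts of these genes were not searched. CAGAC or its reverse complement occurs 169 bases before the start of *Igf1r* and 117 bases before the second start of *Igfbp2*, and none of the 4 motifs occurs in the windows of *Igfbp5* and *Igfbp7*. These are matches of letters in a short window, and binding at them was not measured here.

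Between 34066930 and 61691258 reads per library were counted on genes. CPM values are the reads of a gene scaled to the size of its library and normalized between libraries by TMM. Values of single embryos are listed by replicate number, which runs 1, 2 and 3 in both wild-type groups, 1, 3, 4 and 5 in the mutants at E10.0 and 1, 2, 4 and 5 in the mutants at E10.5. In RPKM, which also divides by the kilobases of annotated exon and allows genes to be compared, the 7 members had the same order in all 4 groups. *Igfbp4* was the highest, followed by *Igfbp5*, *Igf1r*, *Igfbp2*, *Igfbp3*, *Igf1* and *Igfbp7*. In wild type at E10.0 the mean levels were 254 RPKM for *Igfbp4*, 85.8 for *Igfbp5*, 32.8 for *Igf1r*, 26.4 for *Igfbp2*, 16.3 for *Igfbp3*, 2.45 for *Igf1* and 0.147 for *Igfbp7*. Most neighbors in this order did not overlap between embryos of a group. The exceptions were *Igf1r* and *Igfbp2*, which overlapped in all groups but the mutants at E10.0, and *Igfbp2* and *Igfbp3*, which overlapped in both mutant groups. The exon lengths are those of another annotation (GENCODE) than the one used for counting, so that the levels of *Igf1r* (4476 annotated exon bases) and *Igf1* (9921 bases) relative to the others depend on it.

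**Figure D1:**
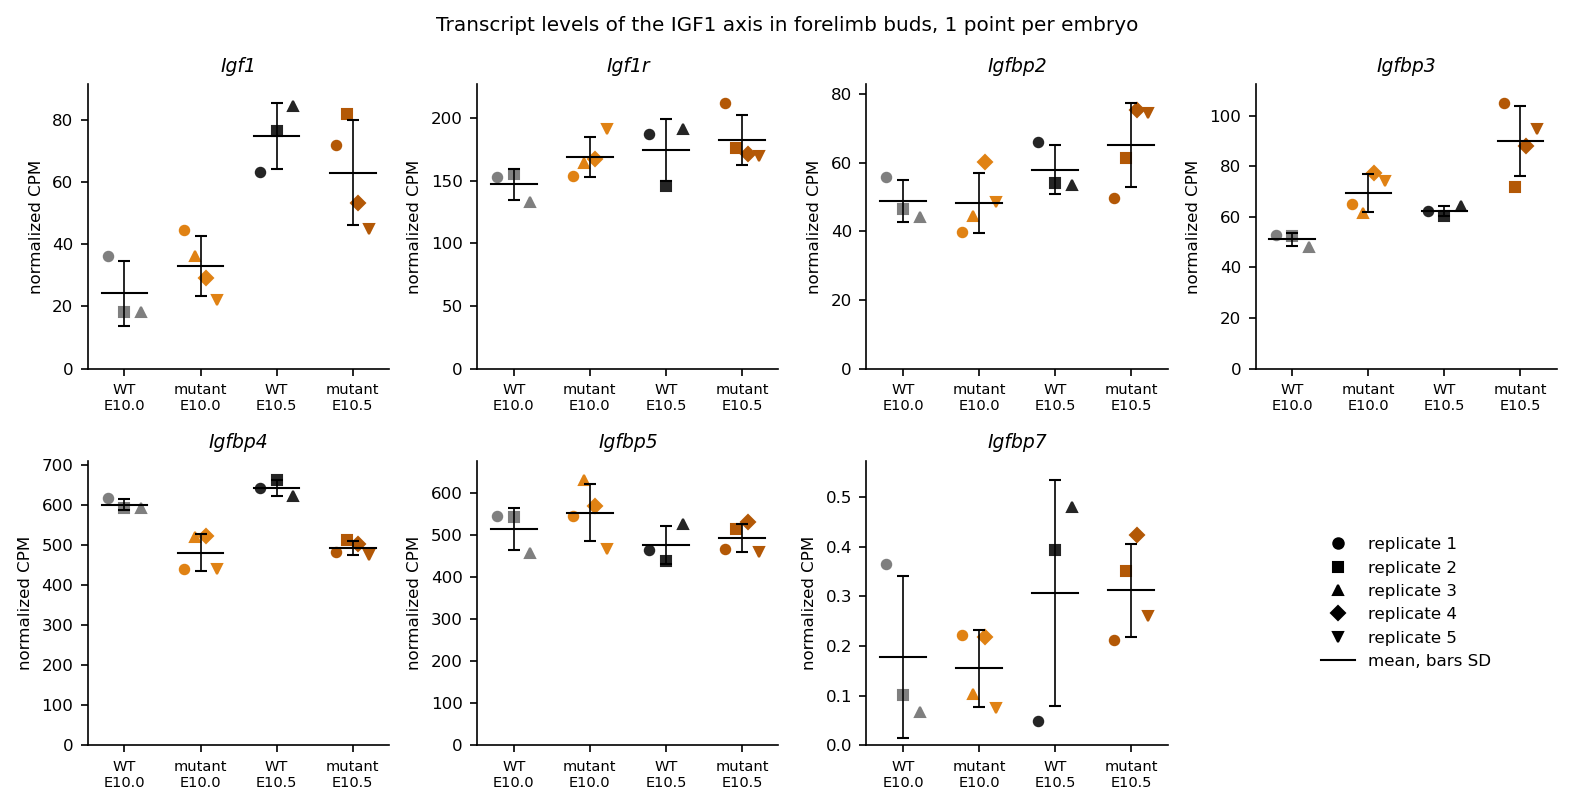
Normalized CPM (y axes, linear from 0) of the 7 members in each embryo, by genotype and stage, with the mean (line) and SD (bars), and symbols for the replicate number. *Igfbp3* in the mutants and *Igfbp4* in the wild types lie above the other genotype at both stages, and *Igf1* is higher at E10.5 than at E10.0 in both genotypes.

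Loss of SMAD4 was accompanied by opposite differences in 2 binding proteins, with *Igfbp3* higher and *Igfbp4* lower in the mutants at both stages. At each stage these were 2 of the 6 members tested (1 higher, 1 lower), beside 6.61% of all 12393 genes tested at E10.0 and 3.73% at E10.5. *Igf1*, *Igf1r*, *Igfbp2* and *Igfbp5* did not pass the thresholds at either stage, and *Igfbp7* was too low to be tested. The median log2 fold change of the 6 members was 0.15 at E10.0 and 0.054 at E10.5, beside -0.017 and -0.01 for all genes. A gene passed if its Benjamini-Hochberg adjusted *P* in the exact test of edgeR was at most 0.1 and its fold change at least 1.2. Positive log2 fold changes mean higher levels in the mutants, and SE is the standard error between embryos.

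*Igfbp3* encodes the binding protein that carries most IGF in the blood after birth and that also binds cell surfaces and matrix. At E10.0 it was measured at 53, 52.3 and 48.1 CPM in the wild types and at 64.9, 61.7, 77.4 and 74.2 CPM in the mutants. At E10.5 it was measured at 62.4, 60.3 and 64.4 CPM in the wild types and at 105, 71.8, 88.2 and 94.9 CPM in the mutants. Every mutant lay above every wild type of its stage, and the mutants spread more widely, with a coefficient of variation of 10.7% and 15.5% against 5.24% and 3.28%. The log2 fold change was 0.44 ± 0.0879 (SE) at E10.0 (1.36-fold, adjusted *P*=0.00549) and 0.53 ± 0.118 (SE) at E10.5 (1.44-fold, adjusted *P*=0.000354). With 1 embryo left out at a time, it ranged from 0.39 to 0.50 for the younger and from 0.45 to 0.63 for the older embryos, and it passed in all 7 fits of each stage.

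*Igfbp4* encodes a binding protein known mainly as an inhibitor of IGF action and as the substrate of the protease PAPP-A. It was the highest member per exon length (RPKM), and the reads behind each value numbered from 14587 upward. At E10.0 it was measured at 617, 592 and 592 CPM in the wild types and at 440, 520, 523 and 440 CPM in the mutants. At E10.5 the values were 643, 663 and 623 CPM in the wild types and 482, 513, 502 and 475 CPM in the mutants. Every mutant lay below every wild type of either stage. The log2 fold change was -0.32 ± 0.0734 (SE) at E10.0 (0.801-fold, adjusted *P*=0.00908) and -0.38 ± 0.0366 (SE) at E10.5 (0.767-fold, adjusted *P*=0.000658). With 1 embryo left out it ranged from -0.36 to -0.27 for the younger and from -0.40 to -0.35 for the older embryos, and again passed in all 7 fits of each stage.

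Both differences show in the ratio of the 2 transcripts within a library. For every 100 reads of *Igfbp4* there were 8.51 ± 0.371 reads of *Igfbp3* in wild type at E10.0 (SD, *n*=3, range 8.11 to 8.84) and 14.6 ± 2.05 in mutants (SD, *n*=4, range 11.9 to 16.9). At E10.5 the ratio was 9.71 ± 0.6 in wild type (SD, *n*=3, range 9.1 to 10.3) and 18.3 ± 3.35 in mutants (SD, *n*=4, range 14 to 21.7). The same ratio of *Igfbp5*, the next binding protein per exon length, was 85.8 (range 77.1 to 91.8) in wild type and 115 (range 106 to 124) in mutants at E10.0, and 74.4 (range 66.1 to 84.7) and 100 (range 97 to 106) at E10.5. In both ratios the mutants lay above the wild types of their stage without overlap. These ratios restate the levels within each library and do not depend on the normalization between libraries. The summed CPM of the 5 binding proteins was 1216 ± 67.2 in wild type and 1152 ± 110 in mutants at E10.0, where the ranges overlapped, and 1241 ± 26.5 and 1142 ± 45 at E10.5 (SD, *n*=3 and 4), where the mutants (1105 to 1197) lay below the wild types (1216 to 1269).

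**Figure D2:**
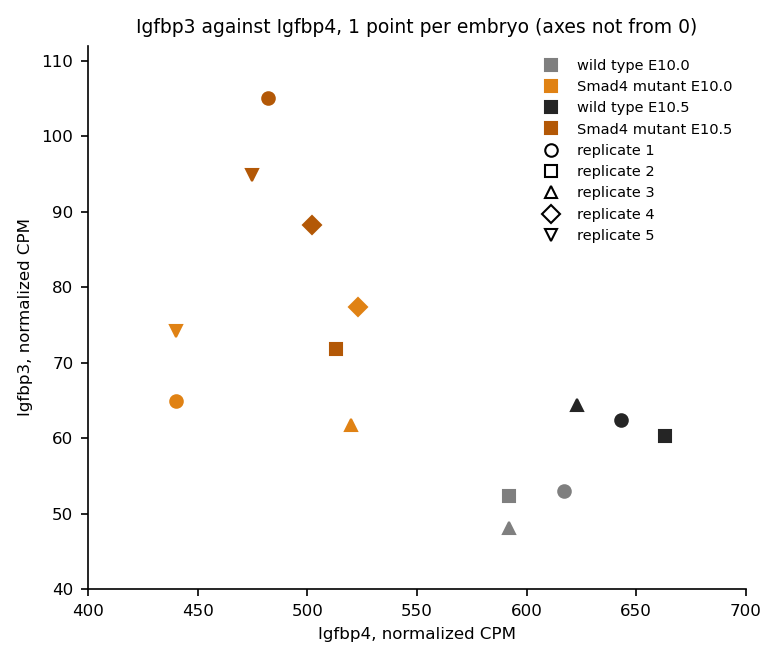
Normalized CPM of *Igfbp3* (y axis, from 40) against *Igfbp4* (x axis, from 400), 1 point per embryo, with color for the group and symbol for the replicate number. The 8 mutants lie at 440 to 523 CPM of *Igfbp4* and the 6 wild types at 592 to 663 CPM, and within each stage the mutants lie above the wild types in *Igfbp3*.

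Summed levels of marker genes of several cell types differed between genotypes as well. In bulk tissue, fewer cells of a type and less RNA per cell cannot be told apart. The summed level of 6 forelimb mesenchyme genes (*Prrx1*, *Prrx2*, *Tbx5*, *Twist1*, *Fgf10* and *Meis1*) was lower in the mutants, like *Igfbp4*, at 981 to 1107 CPM against 1175 to 1338 at E10.0 and at 1078 to 1179 against 1368 to 1430 at E10.5. The groups did not overlap for 2 of these 6 genes at E10.0 (*Prrx2* and *Twist1*) and for 5 of 6 at E10.5, all lower in the mutants. *Fgf10* had a higher mean in the mutants at E10.0 (62.2 against 57.8 CPM). *Prrx1* was the largest part of the sum (mean 601 CPM in mutants and 733 CPM in wild type at E10.0). The paper reports *Prrx2* as a SMAD4 target gene with reduced expression in mutant forelimb buds. It also states, citing earlier work, that no mesenchymal apoptosis or altered morphology is seen at these stages. The summed level of 6 endothelial genes was higher in the mutants at E10.5 (291 to 336 against 273 to 290 CPM) and overlapped at E10.0 (293 to 344 against 267 to 310 CPM). Of these 6 genes, 1 was higher without overlap at E10.5 and 2 at E10.0. Means were lower in the mutants for *Tek* (20 against 20.8 CPM) and *Emcn* (29.9 against 30.5 CPM) at E10.5 and for *Tie1* (25.7 against 28.3 CPM) at E10.0. The summed level of the 6 macrophage genes was higher in the mutants at both stages. It was 7.17 to 10.2 against 3.39 to 7.04 CPM at E10.0 and 15.7 to 21.7 against 12.1 to 15.1 CPM at E10.5. The groups did not overlap for 2 of these 6 genes at E10.0 and for 1 at E10.5. *Cd68* had a lower mean in the mutants at both stages (1.55 against 1.76 and 2.05 against 2.16 CPM). The summed level of the 5 mesothelium and body wall genes was higher in the mutants at E10.0 and lower at E10.5. At E10.0 it was 15.2 to 29 CPM in mutants against 7.73 to 11 in wild type, and at E10.5 5.55 to 8.63 against 10.1 to 12.5. At E10.0, *Wt1*, *Upk3b* and *Lrrn4* were higher without overlap. *Krt19* (5.71 against 6.39 CPM) and *Msln* (0.0543 against 0.0917 CPM) had lower means in these mutants. At E10.5 the groups did not overlap for 1 of the 5 genes. Summed levels of ectoderm, muscle precursor, erythroid and cartilage genes overlapped between genotypes at both stages. Those of somite genes (log2 ratio -0.69) and neural crest genes (-0.32) were lower in the mutants at E10.5. Of the 4 somite genes, *Pax1* was lower without overlap (2.29 to 3.4 against 14.8 to 19.6 CPM). *Tcf15* was higher without overlap (5.8 to 7.72 against 3.92 to 5.29 CPM). Of the 4 neural crest genes, only *Erbb3* was lower without overlap (7.04 to 7.61 against 9.56 to 10.1 CPM). *Sox10* and *Foxd3* had higher means in these mutants. The part of the mesenchymal, endothelial, macrophage, mesothelial, somite and neural crest genes in the results on *Igfbp3* and *Igfbp4* was not tested.

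The other members did not pass the test between genotypes. *Igf1* was measured at 36.3, 18.2 and 18.3 CPM in wild type at E10.0 and at 44.5, 36.4, 29.3 and 22.1 CPM in the mutants. The groups overlapped, with a log2 fold change of 0.45 ± 0.38 (SE, adjusted *P*=0.327), and 1 library decided this call. Without wild-type replicate 1, the log2 fold change was 0.86 (adjusted *P*=0.0182). Without mutant replicates 4 and 5 at both stages, it was 0.75 (adjusted *P*=0.013). At E10.5 *Igf1* was measured at 63.4, 76.6 and 84.6 CPM in wild type and at 72.1, 82.1, 53.5 and 45 CPM in the mutants, which again overlapped (log2 fold change -0.24 ± 0.229 SE, adjusted *P*=0.882). Without mutant replicates 4 and 5, this value was 0.052.

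The mutant replicates 4 and 5 had less *Igf1* than the other mutants of their stage (22.1 to 29.3 against 36.4 to 44.5 CPM at E10.0 and 45 to 53.5 against 72.1 to 82.1 at E10.5) and more *Igfbp2* (48.4 to 60.1 against 39.9 to 44.4 CPM and 74.4 to 75.4 against 49.7 to 61.3). These 4 libraries also stood apart in their share of reads on the ribosomal RNA gene *Rn45s*, which took 1.72% to 8.05% of their counted reads and 0.151% to 0.478% of those of the other 10 libraries. The part of this in the levels of *Igf1* and *Igfbp2* was not tested. *Igfbp3* and *Igfbp4* passed at both stages without these libraries too.

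*Igf1r*, the receptor, was measured at 153, 155 and 133 CPM in wild type and 154, 164, 167 and 191 CPM in mutants at E10.0 (log2 fold change 0.20 ± 0.0936 SE, adjusted *P*=0.327). At E10.5 the values were 187, 146 and 191 CPM and 212, 176, 171 and 170 CPM (0.06 ± 0.143 SE, adjusted *P*=0.958), and the groups overlapped at both stages. *Igfbp2*, an abundant fetal binding protein, was at 55.7, 46.6 and 44.2 CPM in wild type and 39.9, 44.4, 60.1 and 48.4 CPM in mutants at E10.0 (log2 fold change -0.02 ± 0.158 SE, adjusted *P*=0.969). Its sign at this stage turned in several fits. At E10.5 its values were 66.1, 54.1 and 53.5 CPM and 49.7, 61.3, 75.4 and 74.4 CPM (0.17 ± 0.17 SE, adjusted *P*=0.843). *Igfbp5*, a binding protein that attaches to extracellular matrix, was at 457 to 546 CPM in wild type and 468 to 633 CPM in mutants at E10.0 (0.10 ± 0.124 SE, adjusted *P*=0.67) and at 438 to 528 and 461 to 531 CPM at E10.5 (0.048 ± 0.093 SE, adjusted *P*=0.971). All 4 genotype comparisons of these neighbors on chromosome 1 overlapped. *Igfbp7*, a relative that binds IGFs weakly, had 2 to 22 reads per library (0.0481 to 0.481 CPM), below the minimum for testing of 1 CPM in 3 libraries.

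**Figure D3:**
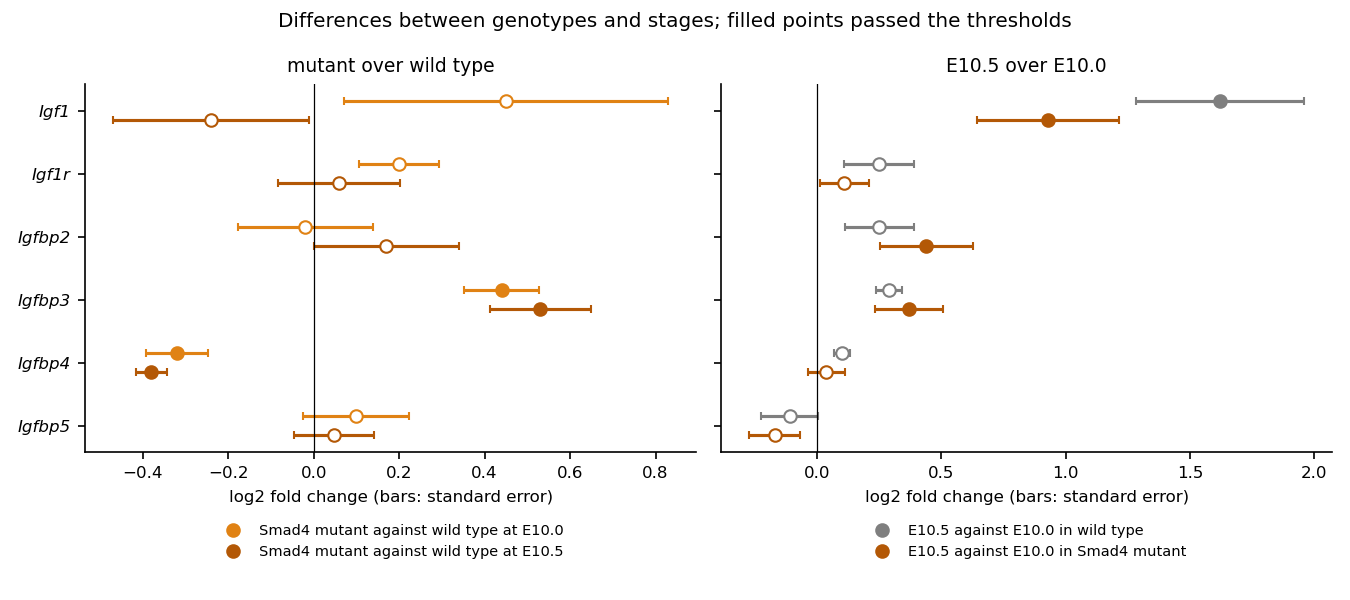
Log2 fold changes (x axes, with SE as bars) of the 6 tested members between genotypes at each stage (left) and between stages in each genotype (right), where filled points passed the thresholds. Between genotypes, *Igfbp3* (0.44 and 0.53) and *Igfbp4* (-0.32 and -0.38) passed, and between stages *Igf1* passed in both genotypes (1.62 and 0.93), and *Igfbp2* and *Igfbp3* in the mutants.

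Between E10.0 and E10.5, the ligand *Igf1* rose in both genotypes. In wild type it was at 18.2 to 36.3 CPM at E10.0 and at 63.4 to 84.6 CPM at E10.5, a log2 fold change of 1.62 ± 0.339 (SE, 3.08-fold, adjusted *P*=1.18e-07). In the mutants it was at 22.1 to 44.5 and 45 to 82.1 CPM, a log2 fold change of 0.93 ± 0.286 (SE, 1.91-fold, adjusted *P*=0.000491). The stages did not overlap in either genotype, although the highest mutant at E10.0 (44.5 CPM) and the lowest at E10.5 (45 CPM) were nearly level. With 1 embryo left out, the log2 fold change stayed between 1.45 and 2.03 in wild type and between 0.78 and 1.11 in the mutants, and passed in all fits run. *Igf1* also varied the most between embryos of a group among the 6 tested members, with a coefficient of variation of 42.8% and 14.3% in wild type and 29% and 26.8% in the mutants of the younger and the older stage.

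Macrophages are a known source of IGF1, and macrophage genes rose with stage as *Igf1* did. The summed level of 6 macrophage genes went from 3.39 to 7.04 CPM at E10.0 to 12.1 to 15.1 CPM at E10.5 in wild type and from 7.17 to 10.2 CPM to 15.7 to 21.7 CPM in the mutants. The stages did not overlap for 5 of the 6 genes in wild type and for 4 of 6 in the mutants, and none of the 6 was at 0 in any library. Between genotypes the mutants were higher in this sum at both stages, by a log2 ratio of 0.67 at E10.0 and 0.37 at E10.5, whereas *Igf1* did not pass. Within groups the order of the embryos differed. In wild type the embryo with the highest macrophage sum had the most *Igf1* at both stages (sum 7.04 and *Igf1* 36.3 CPM at E10.0, sum 15.1 and *Igf1* 84.6 CPM at E10.5). In the mutants the embryo with the highest sum had the least *Igf1* at E10.0 (sum 10.2 and *Igf1* 22.1 CPM) and the second most at E10.5 (sum 21.7 and *Igf1* 72.1 CPM). In wild type, the sums of somite genes (log2 ratio 0.74), neural crest genes (0.27), cartilage genes (0.12) and mesenchyme genes (0.12) were also higher at the later stage without overlap. Within these lists, 2 of 4 somite, 2 of 4 neural crest and 1 of 4 cartilage genes (*Sox9*) were higher without overlap. Mean *Col2a1* fell from 109 to 101 CPM. Of the 6 mesenchyme genes, 2 were higher without overlap and 2 lower, *Prrx2* (mean 88.3 to 69.9 CPM) and *Twist1* (176 to 157 CPM). The part of macrophages and of these other cell types in the rise of *Igf1* was not tested.

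**Figure D4:**
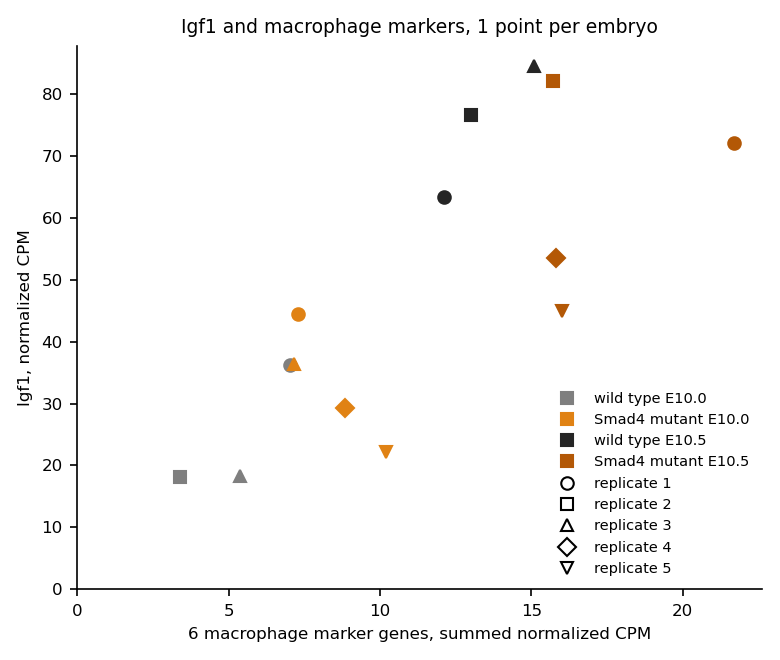
Normalized CPM of *Igf1* (y axis) against the summed normalized CPM of the macrophage genes *Csf1r*, *C1qa*, *C1qb*, *Cd68*, *Mrc1* and *Ptprc* (x axis), 1 point per embryo, with color for the group and symbol for the replicate number. Both are higher at E10.5 than at E10.0 within each genotype, and within groups the highest macrophage sum goes with the most *Igf1* in both wild-type groups (36.3 and 84.6 CPM) and in neither mutant group (22.1 and 72.1 CPM).

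In wild type, *Igf1* was the 1 member of 6 that passed between stages, beside 10.1% of all genes tested. In the mutants 3 of 6 passed, all higher at E10.5, beside 19.2% of all genes tested. The median log2 fold change of the members was 0.25 in wild type and 0.24 in the mutants, beside -0.0086 and -0.005 for all genes. Each group enters a comparison of genotypes and a comparison of stages, so that these share samples.

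*Igfbp3* in the mutants went from 61.7 to 77.4 CPM at E10.0 to 71.8 to 105 CPM at E10.5 (log2 fold change 0.37 ± 0.138 SE, adjusted *P*=0.00387), with some overlap between the stages. In wild type it went from 48.1 to 53 CPM to 60.3 to 64.4 CPM without overlap (0.29 ± 0.0511 SE, adjusted *P*=0.13). This wild-type difference passed in other fits, for example at 0.30 with only the 2 wild-type groups in the fit (adjusted *P*=0.00435). *Igfbp2* in the mutants went from 39.9 to 60.1 CPM to 49.7 to 75.4 CPM (0.44 ± 0.186 SE, adjusted *P*=0.0119), with overlap, and in wild type from 44.2 to 55.7 to 53.5 to 66.1 CPM (0.25 ± 0.139 SE, adjusted *P*=0.374). The summed level of mesothelium and body wall genes fell between stages in the mutants (log2 ratio -1.66, without overlap, and so did 4 of the 5 genes). The summed level of cartilage genes rose (0.43), where 1 of the 4 genes, *Sox9* (mean 50.2 to 87.3 CPM), was higher without overlap. *Acan* (0.42 to 0.317 CPM) and *Matn1* (0.0166 to 0.00488 CPM) fell in mean. The part of these genes in the stage differences of the mutants was not tested. *Igfbp4* in wild type was slightly higher in every embryo at E10.5 than at E10.0 (0.099 ± 0.0326 SE, adjusted *P*=0.579), and in the mutants the stages overlapped (0.037 ± 0.0752 SE, adjusted *P*=0.818).

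*Igf1r* gave a log2 fold change of 0.25 ± 0.14 (SE, adjusted *P*=0.187) between stages in wild type and 0.11 ± 0.0986 (SE, adjusted *P*=0.516) in the mutants. In wild type 1 library decided its call, since without replicate 2 at E10.5 (146 CPM) the value was 0.37 (adjusted *P*=0.0444). *Igfbp5* gave -0.11 ± 0.115 (SE, adjusted *P*=0.626) and -0.17 ± 0.103 (SE, adjusted *P*=0.251). For every 100 reads of *Igf1r*, *Igf1* had 16.5 ± 6.43 reads in wild type at E10.0 and 43.5 ± 9.22 at E10.5 (SD, *n*=3), and 20 ± 7.32 and 34.6 ± 8.64 reads in the mutants (SD, *n*=4).

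No member passed the test of whether its stage difference depended on genotype. In edgeR's quasi-likelihood test of the interaction of stage and genotype, 0 of the 6 members passed an FDR of 0.1 and 0 had an unadjusted *P* below 0.05, beside 0.186% of all genes that passed. DESeq2 also gave 0. *Igf1* had the lowest *P* of the 6, with a smaller stage difference in the mutants (interaction -0.69 ± 0.444 SE, unadjusted *P*=0.0898, adjusted *P*=0.947). For *Igfbp3* the interaction was 0.083 ± 0.147 (SE, adjusted *P*=0.963) and for *Igfbp4* -0.062 ± 0.082 (SE, adjusted *P*=0.963). Interactions of about the size of these SEs were not detectable with this number of embryos.

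The genes most like each member across the embryos were chosen by the highest Pearson correlation of log2(CPM + 1) over all 14 libraries, which share the 4 groups and the normalization, and are a description. For *Igf1* they were *Pogk* (0.965), the myeloid receptor subunit *Fcer1g* (0.944) and *Gbas* (0.938). With the mean of each group removed, the values were 0.855, 0.87 and 0.758. For *Igfbp4* they were the T-box gene *Tbx2* (0.959), *Smad4* itself (0.914) and the ribonuclease inhibitor *Rnh1* (0.913). With group means removed, *Tbx2* and *Rnh1* were at 0.778 and 0.761 and *Smad4* at 0.359. For *Igfbp3* they were *Sept8* (0.934), *Arhgef26* (0.931) and the secreted BMP modulator *Smoc1* (0.926), which fell to 0.587, 0.66 and 0.456.

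The remaining members had their closest genes mostly within groups. *Igf1r* went with the chromatin genes *Asxl3* (0.942), *Chd6* (0.924) and *Asxl1* (0.923), which stayed at 0.93, 0.965 and 0.93 with group means removed. *Igfbp2* went with the corepressor *Aes* (0.953), *Lgals1* (0.923) and *Arl8a* (0.91), and *Igfbp5* with the desmosome gene *Dsp* (0.884), *Colec12* (0.859) and *Ppp2r2b* (0.858). Among pairs of members, the correlation over the 14 libraries ran from -0.626 (*Igfbp3* and *Igfbp4*) to 0.695 (*Igf1r* and *Igfbp3*), and with group means removed these 2 pairs were at -0.236 and 0.533.

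Other genes of the pathway were counted by 4 lists. Of the 10 other ligands, receptors and binding proteins, 4 were expressed enough to be tested. The ligand *Igf2* was by far the highest, at 4005 to 4480 CPM in wild type and 3848 to 4243 CPM in mutants at E10.0 (log2 fold change -0.079, adjusted *P*=0.661) and at 4314 to 4770 and 4575 to 4904 CPM at E10.5 (0.054, adjusted *P*=0.933). The IGF2 scavenger receptor *Igf2r* was the 1 gene of this list that passed between genotypes, at E10.0, with 139 to 233 CPM in wild type and 225 to 285 CPM in mutants (0.49, adjusted *P*=0.0662). This call was lost in 4 of 7 fits with 1 embryo left out and with edgeR's quasi-likelihood test (adjusted *P*=0.148). Between stages no gene of this list passed in wild type, and *Igf2r* fell by 0.42 on the log2 scale in the mutants (adjusted *P*=0.0333), a call that was lost without mutant replicates 4 and 5 (adjusted *P*=0.542) and with same-numbered embryos of the 2 stages paired (adjusted *P*=0.31). The median log2 fold change of the 4 genes between genotypes was 0.093 at E10.0 and 0.12 at E10.5.

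Of the 8 proteases that act on binding proteins and their regulators, all tested, 2 were higher in the mutants at both stages and none was lower, beside 6.61% and 3.73% of all genes, with a median log2 fold change over the list of 0.34 at E10.0 and 0.23 at E10.5. *Pappa2*, which encodes the protease PAPP-A2 that cleaves IGFBP3 and IGFBP5, was at 1.83, 2.25 and 1.63 CPM in wild type and at 3.95, 3.67, 3.85 and 5.31 CPM in mutants at E10.0 (log2 fold change 1.14, adjusted *P*=5.94e-05). At E10.5 it was at 1.66, 1.71 and 1.99 CPM and at 4.84, 2.75, 4.22 and 3.09 CPM (1.06, adjusted *P*=0.000311). *Stc1*, which encodes a stanniocalcin, a family that inhibits pappalysins, was at 5.03 to 6.34 CPM in wild type and 6.79 to 12.1 CPM in mutants at E10.0 (0.89, adjusted *P*=6.17e-05) and at 7.8 to 8.58 and 11.2 to 12.7 CPM at E10.5 (0.58, adjusted *P*=0.0324). Neither gene overlapped between genotypes at either stage, and with 1 embryo left out *Pappa2* passed in all 14 fits and *Stc1* in 12 of them. *Stc1* at E10.5 was lost without wild-type replicate 2 (adjusted *P*=0.206) or 3 (adjusted *P*=0.157), without mutant replicates 4 and 5 (adjusted *P*=0.106) and in the quasi-likelihood test (adjusted *P*=0.1, just over the threshold). The IGFBP4 protease *Pappa* did not pass between genotypes and rose with stage, by a log2 fold change of 0.87 in wild type (adjusted *P*=0.00596) and 0.75 in mutants (adjusted *P*=0.00252). It was 1 of 2 genes of the list that rose between stages in wild type, with none falling, and 1 of 2 that rose in the mutants, with 2 falling, beside 10.1% and 19.2% of all genes. *Adam12*, 1 of those that fell in the mutants, was lost with same-numbered embryos paired (adjusted *P*=0.252) and in 5 of 8 fits with 1 mutant left out. The protease *Htra1* was the other in the mutants (0.92, adjusted *P*=0.00163) and *Stc1* the other in wild type (0.50, adjusted *P*=0.0794, lost in 5 of 6 fits with 1 embryo left out).

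Of the 29 genes of intracellular signaling, all tested, 2 were higher in E10.0 mutants, 1 was higher in E10.5 mutants and none was lower, which is near the 6.61% and 3.73% of all genes that passed. The median over the list was 0.047 and 0.036. *Irs1*, the adaptor that links the receptor to PI3K, was at 32.4 to 40.8 CPM in wild type and 43 to 54.5 CPM in mutants at E10.0 (0.42, adjusted *P*=0.0164), and at 44.2 to 51.4 and 54.8 to 73.4 CPM at E10.5 (0.43, adjusted *P*=0.0127). The groups did not overlap, and the calls were lost without wild-type replicate 3 at E10.0 (adjusted *P*=0.236) and without wild-type replicate 2 at E10.5 (adjusted *P*=0.158). The adaptor *Grb14* passed at E10.0 (0.62, adjusted *P*=0.0529) and was lost in 3 of 7 fits with 1 embryo left out and without mutant replicates 4 and 5 (adjusted *P*=0.132). Between stages 2 genes of this list rose and 1 fell in wild type, and 3 rose and 3 fell in the mutants, also near the 10.1% and 19.2% of all genes. *Mtor*, 1 of those that fell in the mutants, was lost with same-numbered embryos paired (adjusted *P*=0.308) and in 6 of 8 fits with 1 mutant left out. *Eif4ebp1*, an inhibitor of translation downstream of mTOR, fell in both, by 0.61 on the log2 scale in wild type (adjusted *P*=1.91e-05) and by 0.69 in the mutants (adjusted *P*=1.65e-09), and *Irs1* rose in both, by a log2 fold change of 0.38 (adjusted *P*=0.0395) and 0.39 (adjusted *P*=0.00337). The rise of *Irs1* in wild type was lost without replicate 1 (adjusted *P*=0.108) or 3 (adjusted *P*=0.223) at E10.0 and without replicate 3 at E10.5 (adjusted *P*=0.272). Of the 3 RNA-binding proteins of *Igf2* mRNA, *Igf2bp1* fell by 0.34 on the log2 scale between stages in wild type (adjusted *P*=0.0112), a call lost without wild-type replicate 2 at E10.5 (adjusted *P*=0.119), and none passed in the other comparisons. The median of this list between genotypes was -0.0035 in the younger and -0.046 in the older embryos. Between stages, the medians in wild type and mutants were -0.023 and 0.022 for the ligands and receptors, 0.018 and -0.11 for the proteases, 0.062 and 0.02 for intracellular signaling and -0.043 and -0.11 for the RNA-binding proteins. No gene of the 4 lists passed the test of the interaction.

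**Figure D5:**
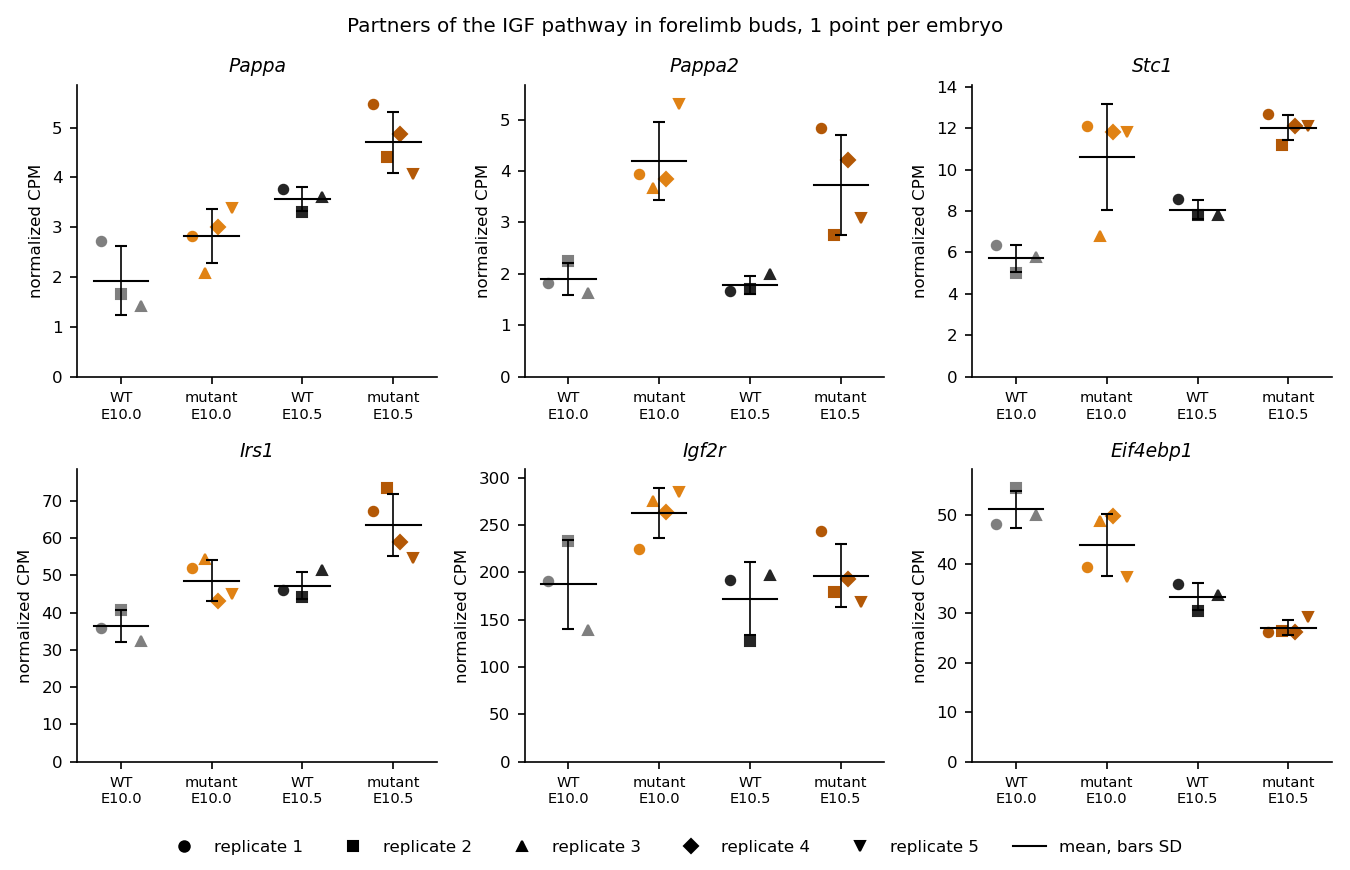
Normalized CPM (y axes, linear from 0) of 6 partners of the pathway in each embryo, by genotype and stage, with the mean (line), SD (bars) and symbols for the replicate number. *Pappa2*, *Stc1* and *Irs1* lie higher in the mutants of both stages without overlap, *Pappa* is higher and *Eif4ebp1* lower at E10.5, and *Igf2r* (225 to 285 CPM in mutants at E10.0) overlaps the wild types.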

How the data were processed

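RNA-seq of forelimb buds from 14 mouse embryos was used. The authors aligned single reads to mm9 and its refGene transcripts with TopHat2 2.0.13 and used HTSeq to count the uniquely mapped ones for each symbol, ignoring strand. The deposited values are raw counts. Reads that fell on no gene (6.18% to 9.86%) or on several (1.49% to 1.75%) stayed out of library sizes. No 2 libraries of a group agreed within sampling noise.

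Following the methods of the study, symbols of chromosomes X, Y and M (1041) were removed, 12393 genes that reached 1 CPM in 3 or more samples were kept, and edgeR 4.0.16 (R 4.3.3) was run with TMM (factors 0.934 to 1.04), common and tag-wise dispersions (prior of 10 degrees of freedom, all 14 samples) and its exact test. The interaction was tested by edgeR's quasi-likelihood test. Adjusted *P* values are Benjamini-Hochberg values over all genes tested, with thresholds of 0.1 and, for pairs of groups, a 1.2-fold change. Standard errors come from log2(CPM + 1), and the added 1 makes them too small in low genes. The tests were tested on simulated data. Replicates are separate embryos. Members, gene lists and tests were chosen with earlier results of these data known. All members, the called pathway genes with the smallest *P* (at most 4 per list and comparison) and the 3 genes most like each member are named. *Igf2*, *Pappa* between genotypes and the cell markers were named for their role.

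Replicate numbers were not shown to pair wild types with mutants or wild types between stages. In the mutants, same-numbered embryos of the 2 stages deviated together (correlations of 0.571, 0.611 and 0.269). Different-numbered embryos were not compared in this way. Mutant replicates 4 and 5 of both stages also share a high *Rn45s* share (1.72% to 8.05%), so that the numbers are not shown to be a pairing. A replicate block by number rests on the numbers that both groups share, which are 1, 4 and 5 between mutant stages. There it changed no call of a member and took the calls among listed pathway genes from 11 to 8. Python 3.11.15 and DESeq2 1.42.0 were also used. Alternatives were other tests, size factors, filters and sets of samples. The precision of *Igfbp7* is limited by its 2 to 22 reads. Other experiments of the study were not analysed here.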

Additional observations from a re-analysis of the deposited data

Results flagged for a closer look

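In groups of 4 embryos, a single embryo was set apart where its gap to the nearest other exceeded Dixon's 95% critical value, which by chance happens in about 1 in 20 groups. Of 16 groups tested, 2 held such an embryo. *Igf1r* in mutant replicate 1 at E10.5 was at 212 CPM, above the other 3 mutants at 170 to 176 CPM, and without this embryo the log2 fold change of *Igf1r* between genotypes at E10.5 was -0.012 in place of 0.06. *Smad4* in mutant replicate 3 at E10.0 was at 46 CPM, above the other 3 mutants at 36.9 to 38.4 CPM and below all wild types.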

How the results depend on the processing

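The calls of *Igfbp4* between genotypes, of *Igf1* between stages in both genotypes and of *Igfbp2* and *Igfbp3* between stages in the mutants held in every alternative run, and no called member turned its direction. The calls of *Igfbp3* between genotypes held in all but one, the fit with the replicate number as a block (0.33, adjusted *P*=0.113 at E10.0 and 0.50, adjusted *P*=0.102 at E10.5, edgeR's quasi-likelihood test). The numbers do not pair these samples. Same-numbered embryos of the 2 genotypes deviated with correlations of 0.174 and -0.188 for the younger and -0.26 and -0.0512 for the older stage. Wild types and mutants share only numbers 1 and 3 among the younger embryos, and only 1 and 2 among the older. Embryos without a same-numbered partner add nothing to the genotype difference in this fit. Whether the block or this smaller set of embryos changed the calls was not tested. With the block, 1 member passed between genotypes at E10.5 in place of 2, *Igf1* passed at E10.0 (0.63, adjusted *P*=0.0553), and the values at E10.5 turned to 0.14 for *Igf1* and to -0.12 for *Igfbp2*. Wild types of the 2 stages deviated with correlations of -0.0785, -0.109 and -0.283 and are not shown to be paired either. Between wild-type stages 1 member passed, and 2 passed with a minimum of 5 CPM, with only the 2 groups in the fit or with the block, 3 without mutant replicates 4 and 5, and 1 to 2 with 1 embryo left out. Where these counts rose, *Igfbp3* or *Igf1r* was added, and the cause was not tested.

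Members that did not pass turned direction in some alternatives, by small values. Without mutant replicates 4 and 5, the value was 0.052 for *Igf1* and -0.051 for *Igfbp2* between genotypes at E10.5 and 0.028 for the interaction of *Igf1r*. Without *Rn45s* it was 0.00061 for *Igfbp2* between genotypes at E10.0. With 1 embryo left out, *Igfbp2* at E10.0 ranged from -0.14 to 0.085, *Igf1r* at E10.5 from -0.046 to 0.14, *Igfbp5* at E10.5 from -0.0025 to 0.13, *Igfbp4* between mutant stages from -0.0031 to 0.08, and the interactions of *Igfbp3* from -0.00048 to 0.18 and of *Igfbp5* from -0.13 to 0.021.

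The counts over all genes, which give the shares beside the members, moved further. At E10.0, 819 genes passed between genotypes, and 2018 without mutant replicates 4 and 5, 1990 with the block, 494 without mutant replicate 5 and 254 without wild-type replicate 3. At E10.5, 286 in place of 462 passed without wild-type replicate 2. Between wild-type stages 1256 passed, and 1932 with only these groups in the fit, 1899 with the block, and 484 and 827 without replicate 2 or 3 at E10.0 and 823 and 512 without replicate 2 or 3 at E10.5. For the interaction 23 passed, and 87 with DESeq2, 39 without a filter, 5 with a minimum of 5 CPM and 6 without mutant replicates 4 and 5. Of the listed pathway genes, 5 passed between genotypes at E10.0, and 9 without mutant replicates 4 and 5 or with the block, and 3 without mutant replicate 5 or without wild-type replicate 3. At E10.5, 3 passed, and 1 without wild-type replicate 2, and with the block the calls of *Pappa2* (adjusted *P*=0.103) and *Stc1* (adjusted *P*=0.157) were lost. Between wild-type stages 6 passed, and 3 without replicate 3 at E10.0 or without replicate 2 or 3 at E10.5. Between mutant stages 11 passed, and 7 with a minimum of 5 CPM or without mutant replicates 4 and 5, and 8 with the block. With 3 or 4 embryos per group, differences of about the size of the standard errors of the uncalled members were not detectable.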
